A study of Mus musculus with 16 samples.

Results

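The hypoxia and glycolysis genes described here are 33 mouse genes, chosen by symbol: the carriers and enzymes that take up and break down glucose, their regulators, and genes known to respond when oxygen is short. All 33 were among the 24681 gene symbols of the count table, and 32 passed the filter on low counts that left 15610 genes for testing. Ankrd37 did not pass it, with 4 to 16 counts per library. The counts come from RNA sequencing of 16 whole xenograft tumours. The tumours were grown in SCID mice, hosts without functional T and B lymphocytes, from AU565(pv), a HER2-positive human breast cancer line placed in a mammary fat pad. Each mouse gave 1 library, and all groups were harvested 2 days after dosing began, when established tumours of 20 to 25 mm2 were treated by intraperitoneal injection. The 4 vehicle mice received D5W on days 0 and 1 and PBS on day 0. The 4 trastuzumab mice received D5W on those days and 10 mg/kg of trastuzumab, an antibody against HER2. The 4 panobinostat mice received 15 mg/kg of panobinostat, an inhibitor of histone deacetylases, on days 0 and 1, with PBS. The 4 combination mice received panobinostat and trastuzumab on those schedules. The labels place the trastuzumab dose on day 0 in the treatment protocol and on day 1 in the series design. The labels give neither the age nor the sex of the mice.

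Cells that lack oxygen stabilise the hypoxia-inducible factors HIF-1α (Hif1a) and HIF-2α (Epas1), because the prolyl hydroxylases that mark them for degradation (Egln1, Egln3) need oxygen to work. The stabilised factors pair with ARNT, bind the core sequence RCGTG and raise transcription of glucose carriers, glycolytic enzymes, collagen-modifying enzymes and secreted peptides such as adrenomedullin (Adm). In a xenograft, mouse RNA comes from host fibroblasts, vessels, macrophages and fat, so the mouse genes were taken to report on the host tissue rather than on the human tumour cells.

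The values are counts of reads assigned to mouse genes, and totals ran from 4848244 to 8140782 per library. How many of these reads were human was not measured, and reads of conserved human transcripts could add to the counts. Of the defining markers, all 11 of adipocytes, 9 of endothelial cells, 8 of fibroblasts and 9 of macrophages were above 0 in every library. All 14 luminal epithelial markers had counts, with Spdef at 0 in some libraries, and their summed level was 809 to 1318 CPM, which are counts scaled to the library's TMM-scaled total. In whole tumours, fewer cells of a type and less RNA per cell cannot be told apart.

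Glycolytic enzymes were the most abundant of the 33 genes. On the scale of CPM per kilobase of merged exons, the vehicle means were 288 ± 31.2 for Pkm, which makes pyruvate, 266 ± 41.4 for Aldoa, which splits fructose bisphosphate, and 165 ± 28.1 for Pgk1 (SD, n = 4 each). Pgam1 followed at 114 ± 16.6, Ldha, which converts pyruvate to lactate, at 97.5 ± 16.5, Eno1 at 74.7 ± 2.35 and Tpi1 at 73.0 ± 15.3. Hif1a ranked next at 54.6 ± 7.73, above the collagen lysyl hydroxylase Plod2 at 40.7 ± 8.92. Epas1 stood at 19.2 ± 3.60, Slc2a1 at 17.7 ± 3.85, Adm at 11.1 ± 6.29 and Hk1 at 6.20 ± 0.412. At the low end were Egln3 at 1.31 ± 0.529, the carbonic anhydrase gene Car9 at 1.09 ± 0.126 and Ankrd37 at 0.858 ± 0.230. In this order the 4 vehicle libraries of a gene failed to overlap those of the next gene in only 5 places: below Aldoa, Pgk1, Ldha, Hk1 and Pdk1. Adm was the 20th gene in the vehicle order, the 27th under trastuzumab and under panobinostat, and the 28th under both drugs.

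**Figure D1:**
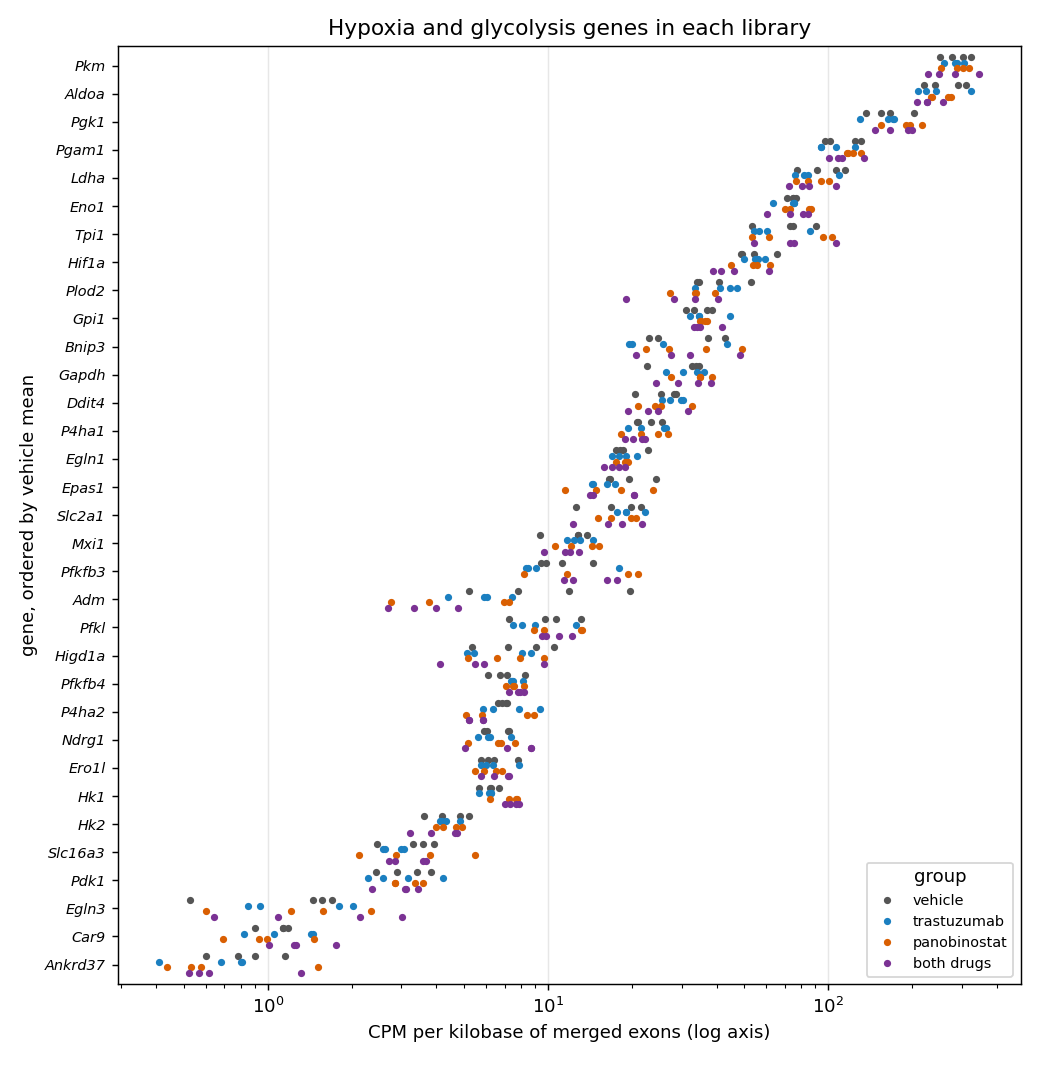
Level of the 33 genes in each library, as CPM per kilobase of merged exons on a log axis, with genes ordered by their vehicle mean and points coloured by group. Points of the 4 groups lie over each other for most genes, and Adm, the 20th gene in the vehicle order, extends toward lower values in treated libraries.

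Some of these levels are uncertain because the genes resemble others. Of the 50-base stretches of the merged transcripts, 53.9% of those of Pgk1, 36.2% of Pgam1, 26.0% of Eno1, 25.8% of Pkm and 24.7% of Gapdh also occur in another annotated gene. Pseudogenes were 5 of the 5 sharing genes for Pgk1, 4 of 4 for Pgam1, 8 of 16 for Eno1, 7 of 8 for Pkm and 213 of 218 for Gapdh. Pkm also overlaps Gm49759 on the same strand over 15.3% of its exonic length. For Gapdh, whose message is abundant in most tissues, 213 pseudogenes share sequence, and its level of 30.9 ± 5.65 CPM per kilobase ranked 12th. Counting could drop or split reads of shared sequence. The ranks also depend on the divisor, the merged length of all annotated exons, 4133 bases for Gapdh and 8532 for Hk1. This length can exceed that of the transcripts in use, which were not determined. Adm, Hk1, Hk2, Epas1, Plod2, Slc2a1, Slc16a3, Egln1, Egln3 and Car9 shared no 50-base stretch with another annotated mouse gene. Human transcripts were not searched. The library kit does not mark strand, and Bnip3 and Higd1a overlap an antisense gene over 22.3% and 22.5% of their exonic length. Ankrd37 overlaps 2 antisense genes over 26.4% of its exonic length.

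Few of the genes differed between treatments. Adm, which encodes a vessel-dilating peptide, fell under both drugs together, and Hk1, the hexokinase found in most cells, was slightly higher in panobinostat-treated tumours. A gene was called when its Benjamini-Hochberg adjusted p in edgeR's quasi-likelihood test, taken over all 15610 genes, was under 0.05. For both drugs against vehicle, 1 of the 32 genes was called, against 2.2% of all genes tested. Shares at an unadjusted p under 0.05 are given for the comparisons that called 0. Panobinostat against vehicle called 0 of 32, against 0.192% of all genes, with 2 (6.25%) at an unadjusted p under 0.05, against 8.1% of all genes. Trastuzumab against vehicle called 0 of 32, against 0% of all genes, with 1 (3.12%) at an unadjusted p under 0.05, against 3.52%. Adding panobinostat to trastuzumab called 0, against 0.628% of all genes, with 3 (9.38%) at an unadjusted p under 0.05, against 9.26%. Adding trastuzumab to panobinostat and the interaction of the drugs each called 0, as did all genes (0%), with 0 at an unadjusted p under 0.05, against 4.48% and 1.79%. For the average effect of panobinostat, with and without trastuzumab, 1 of 32 was called, against 3.02% of all genes. For the average effect of trastuzumab 0 were called, against 0.147% of all genes, with 1 (3.12%) at an unadjusted p under 0.05, against 5.94%. Where edgeR called 0, DESeq2 and limma voom called 0 as well. The counts of called members in each comparison were thus 0 or 1, too few to set apart from those background shares.

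The 3 comparisons with vehicle share the same 4 control libraries, so their values are given side by side. The median log2 change of the 32 genes was 0.020 under panobinostat, -0.032 under trastuzumab and -0.043 under both drugs, beside 0.0076, 0.0017 and -0.0058 over all genes. The summed level of the 33 genes ran from 5458 to 5847 CPM in vehicle, 5257 to 5678 in trastuzumab, 5515 to 5940 in panobinostat and 5030 to 5785 in combination libraries. These ranges overlapped in every pair of groups. The 95% interval of the log2 change lay within ±1 for 29 of 32 genes under panobinostat, 30 under trastuzumab and 30 under both drugs. It lay within ±0.5 for 20, 21 and 18 of them. The genes whose interval reached beyond 1 in either direction were Adm and Egln3 in all 3 comparisons and Pfkfb3 under panobinostat.

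**Figure D2:**
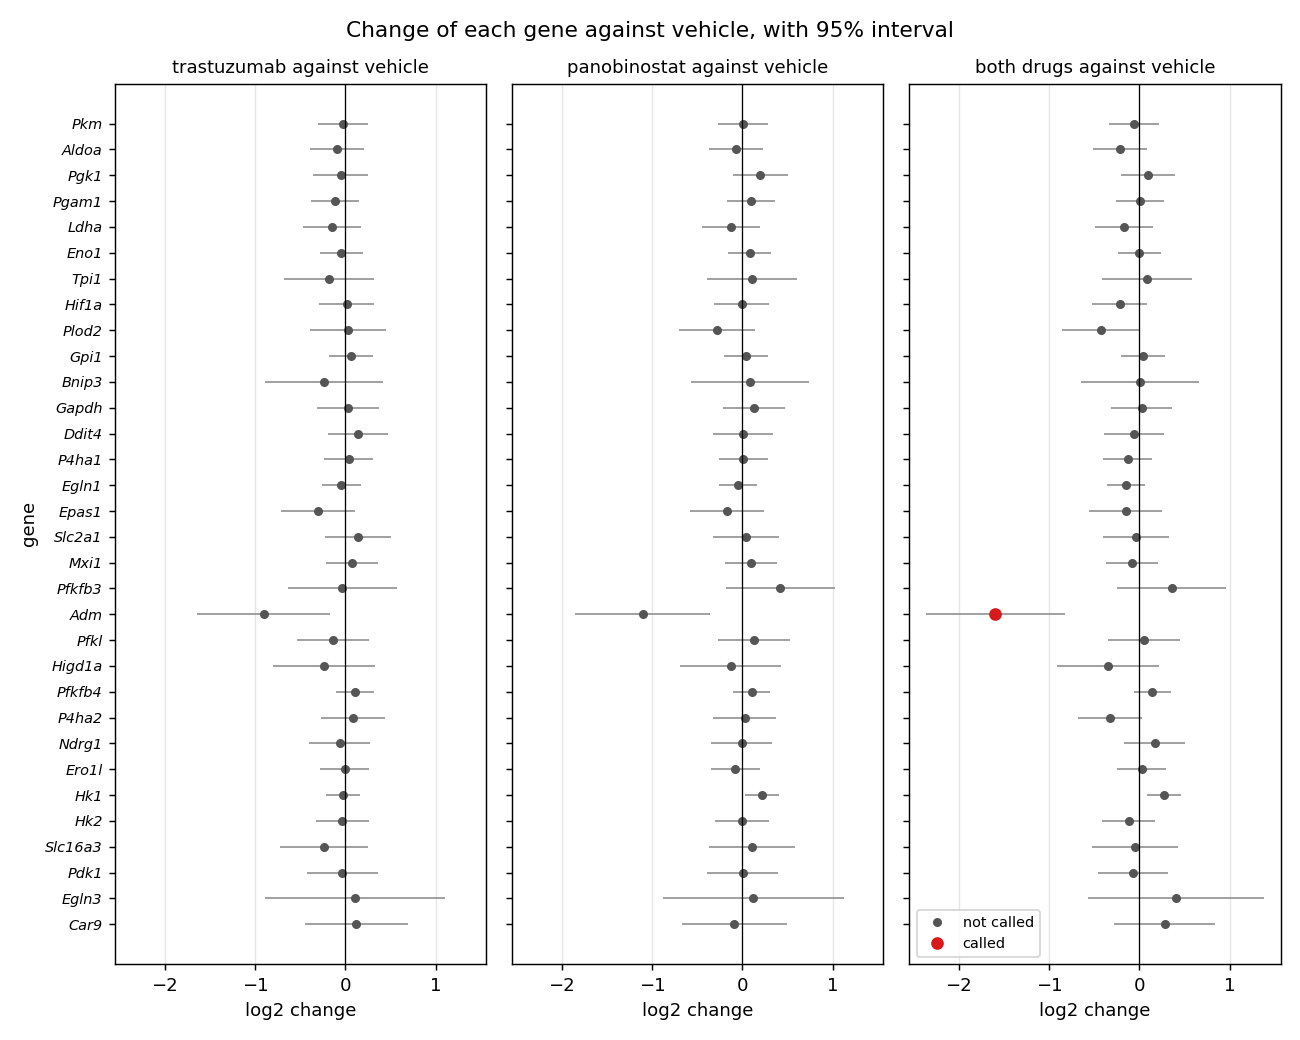
Log2 change of the 32 tested genes against vehicle under each treatment (points) with its 95% interval (lines), from the fit over 16 libraries. Adm is the called gene, under both drugs at -1.59, while most other intervals cross 0.

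Adm was the member with the largest change. The gene lies on the plus strand of chromosome 7 at 110627661 to 110629820 (GRCm38), with no exon shared with another annotated gene. The 4 vehicle libraries, given here and below in the order of mouse number (3, 6, 21 and 29), held 8.43, 31.8, 12.7 and 19.2 CPM of Adm. The trastuzumab libraries (mice 12, 15, 20 and 24) held 12.1, 9.79, 9.58 and 7.13 CPM, the panobinostat libraries (mice 4, 7, 8 and 13) 4.44, 11.3, 6.08 and 11.8 CPM, and the combination libraries (mice 2, 11, 16 and 22) 4.36, 5.38, 6.46 and 7.71 CPM. Every combination library was below every vehicle library, while the groups on 1 drug overlapped vehicle mouse 3 and lay below the other 3 vehicle libraries. The vehicle libraries themselves spread widely, with mouse 6 the highest.

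The Adm mean was 18.0 ± 10.2 CPM in vehicle and 5.98 ± 1.44 CPM under both drugs (SD, n = 4 each). The log2 change was -1.59 (SE 0.36, 95% interval -2.36 to -0.83, edgeR adjusted p = 0.0266). Against the same vehicle libraries the log2 change was -1.10 under panobinostat (SE 0.36, edgeR adjusted p = 0.289) and -0.90 under trastuzumab (SE 0.35, edgeR adjusted p = 1.00), neither past the threshold. The interaction was 0.42 (95% interval -0.67 to 1.51, edgeR adjusted p = 1.00), so no departure from additive log2 effects was detectable for Adm. Averaged over trastuzumab, panobinostat gave -0.90 (edgeR adjusted p = 0.0753). The call of Adm for both drugs was lost without vehicle mouse 6, where the log2 change was -1.16 (edgeR adjusted p = 0.109), and without vehicle mouse 29 or combination mouse 2 or 11. It was also lost by limma voom, with only these groups in the fit, and with the luminal epithelial marker score as a covariate (log2 change -1.30, edgeR adjusted p = 0.312). Adm counts were low, from 25 to 198 per library.

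Markers of other cells also differed between groups. The group means of the summed erythroid, fibroblast, skeletal muscle, and pericyte and smooth muscle markers fell from vehicle to trastuzumab, panobinostat and combination. This was the order of the Adm means. The group means of the adipocyte, endothelial, macrophage, neutrophil, and NK and T lymphocyte markers and of the luminal epithelial score did not follow that order. Skeletal muscle markers ran from 557 to 976 CPM in vehicle and 424 to 749 in combination libraries. Of these, Ckm, Myh4, Myh1 and Tnnc2 were at 0 in some libraries. Pericyte and smooth muscle markers ran from 595 to 746 CPM in vehicle and 551 to 722 in combination libraries. The summed level of 6 erythroid markers ran from 309.9 to 1125 CPM in vehicle, 241 to 813 in trastuzumab, 137 to 205 in panobinostat and 78.1 to 120.2 in combination libraries. The panobinostat and combination ranges of these erythroid markers lay below the vehicle range. The 7 neutrophil markers ran from 138 to 203 CPM in vehicle, 154 to 228 in trastuzumab, 104 to 143 in panobinostat and 92.3 to 122 in combination libraries. The 8 fibroblast markers ran from 17070 to 26327 CPM in vehicle, 14005 to 22375 in trastuzumab, 13090 to 20749 in panobinostat and 13442 to 16667 in combination libraries. The luminal epithelial score, the mean log2 CPM of its markers, was 4.997 ± 0.335 in vehicle, 5.36 ± 0.259 in trastuzumab, 5.03 ± 0.166 in panobinostat and 5.48 ± 0.328 in combination libraries (SD, n = 4 each). The 9 endothelial markers ran from 329.5 to 439 CPM in vehicle and from 396 to 436 in combination libraries, which overlap. All erythroid and neutrophil markers had counts, with Slc4a1, Retnlg and Ly6g at 0 in some libraries. The part of these cells in the Adm result was not tested.

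Hk1, which phosphorylates glucose in the first step of glycolysis, lies on the minus strand of chromosome 10 at 62268855 to 62379908 and overlaps its antisense gene Hk1os over 157 exonic bases. The libraries without panobinostat held 52.8, 48.5, 57.1 and 53.3 CPM in vehicle and 52.7, 53.5, 48.5 and 53.4 CPM in trastuzumab mice. Those with panobinostat held 65.4, 66.0, 52.9 and 61.9 CPM alone and 60.1, 67.0, 65.8 and 62.7 CPM with trastuzumab. All but 1 of the 8 panobinostat-treated libraries were above all 8 others, and the exception was panobinostat mouse 8. The average log2 change with panobinostat was 0.26 (SE 0.064, 95% interval 0.12 to 0.39, edgeR adjusted p = 0.0369). By pairs of groups, Hk1 stood 0.22 above vehicle under panobinostat (edgeR adjusted p = 0.524), 0.27 above vehicle under both drugs (edgeR adjusted p = 0.154) and 0.29 above trastuzumab under both drugs (edgeR adjusted p = 0.196). The groups did not overlap in the latter pair of comparisons. For Hk1 the change with trastuzumab alone was -0.02 (95% interval -0.21 to 0.17). The Hk1 call was narrow: leaving out any of 12 of the 16 libraries raised its adjusted p above the threshold, with log2 changes of 0.24 to 0.27.

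Counts of genes whose libraries do not overlap between groups add little. Under both drugs against vehicle this held for 3 of 32 genes, Adm, Hk1 and P4ha2, against 7.32% of all genes tested. Under both drugs against trastuzumab it held for 2 of 32, Hk1 and P4ha2, against 5.07%. It held for 0 of 32 under panobinostat (5.23% of all genes), 0 under trastuzumab (2.3%) and 0 for both drugs against panobinostat (2.79%).

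**Figure D3:**
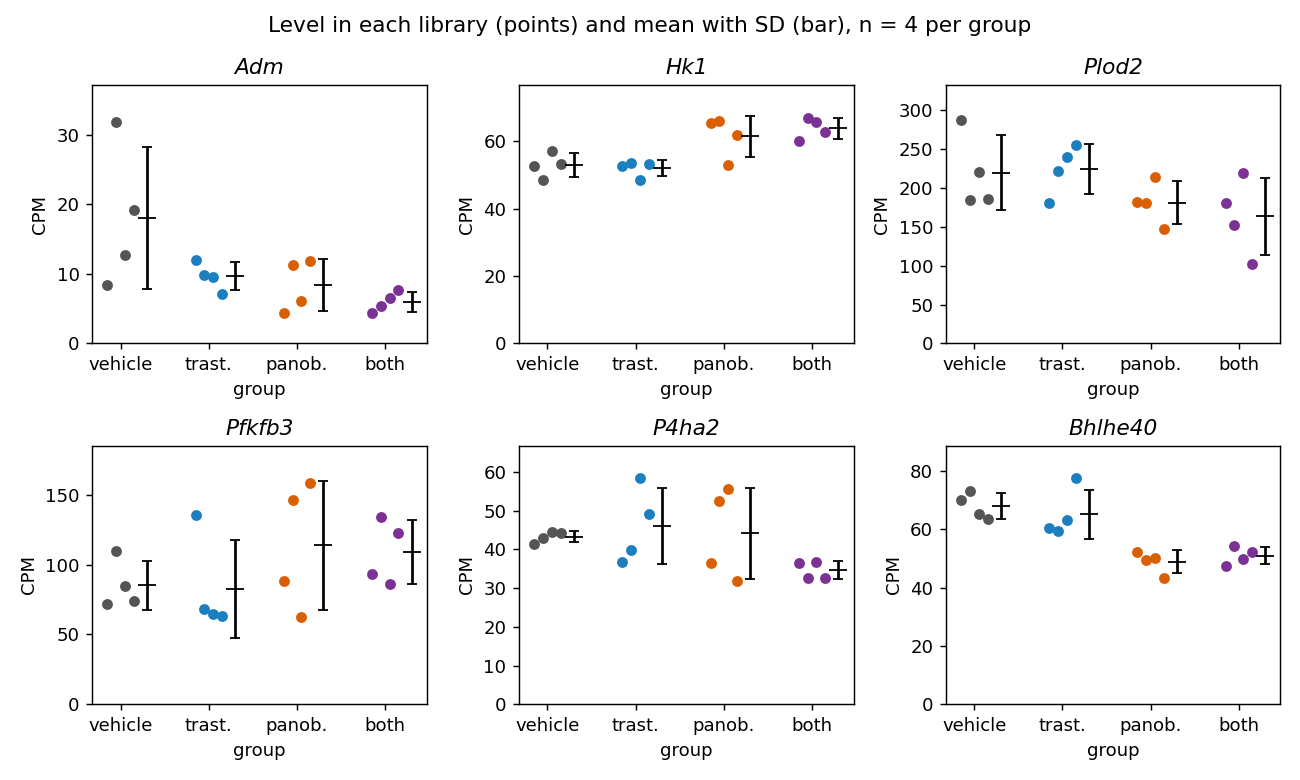
Level in CPM of 5 of the hypoxia and glycolysis genes and of Bhlhe40, a further hypoxia target, in each library (points, in order of mouse number) with the group mean and SD (bar, n = 4). Adm is highest in vehicle mouse 6 at 31.8 CPM and lies between 4.36 and 7.71 under both drugs, while Hk1 lies between 60.1 and 67.0 under both drugs and at most 57.1 in vehicle.

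The start sites of the genes were searched for the core of the HIF response element, ACGTG or GCGTG on either strand, in the 250 bases before the annotated start (RefSeq, GRCm38.p6). Matches on the 2 strands of the palindrome CACGTG overlap and count separately. RefSeq windows were at hand for 30 of the 33 genes, and 28 of these (93.3%) held a match, against 60.0% of 10229 genes tested here with a window and 41.5% of 27025 genes in all. For each gene the window with the highest GC content was taken. The median of these was 66.8% for the 30 genes, 61.2% for the tested genes and 52.8% for all, and a GC-rich window holds these letters more often. A match is a description of the letters and not evidence of binding. The windows are shown for Adm and Hk1, the genes called in a drug comparison (Hk1 has 2 annotated starts), and for Bnip3 and the upstream of 2 Ldha starts, which held the most matches. They are written 5′ to 3′ on the gene's strand, with matches in capitals.

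Adm: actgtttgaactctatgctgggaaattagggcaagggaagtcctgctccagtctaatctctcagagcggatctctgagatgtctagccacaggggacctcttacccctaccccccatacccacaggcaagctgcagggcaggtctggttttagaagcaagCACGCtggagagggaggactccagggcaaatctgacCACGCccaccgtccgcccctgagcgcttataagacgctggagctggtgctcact

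Hk1 upstream start: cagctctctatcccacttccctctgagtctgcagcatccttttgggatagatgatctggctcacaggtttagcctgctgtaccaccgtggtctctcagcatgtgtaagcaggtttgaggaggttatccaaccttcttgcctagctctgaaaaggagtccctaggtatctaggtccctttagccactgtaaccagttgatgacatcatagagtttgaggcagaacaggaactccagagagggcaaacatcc

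Hk1 downstream start: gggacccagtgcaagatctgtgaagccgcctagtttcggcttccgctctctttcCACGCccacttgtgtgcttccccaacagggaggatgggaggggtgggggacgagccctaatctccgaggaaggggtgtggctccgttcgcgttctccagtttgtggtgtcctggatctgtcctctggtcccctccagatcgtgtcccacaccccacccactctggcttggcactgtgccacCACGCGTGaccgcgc

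Ldha upstream start: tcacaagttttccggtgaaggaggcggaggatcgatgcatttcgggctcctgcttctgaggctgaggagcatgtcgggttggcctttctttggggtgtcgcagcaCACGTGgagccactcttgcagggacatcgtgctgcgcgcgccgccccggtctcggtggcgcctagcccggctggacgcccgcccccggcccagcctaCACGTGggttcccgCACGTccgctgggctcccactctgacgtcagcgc

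Bnip3: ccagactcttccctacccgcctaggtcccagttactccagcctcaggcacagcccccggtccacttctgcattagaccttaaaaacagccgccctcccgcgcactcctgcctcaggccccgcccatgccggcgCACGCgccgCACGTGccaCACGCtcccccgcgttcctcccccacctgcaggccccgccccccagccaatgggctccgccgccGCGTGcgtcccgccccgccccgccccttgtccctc

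The Adm window (chr7:110627407-110627656, plus strand) held 2 matches, 90 and 54 bases before the start, both in the reverse orientation. The window of the upstream Hk1 start (chr10:62379909-62380158, minus strand) held 0, and that of the downstream start (chr10:62340422-62340671, minus strand) held 3, at 196, 15 and 12 bases. The window of the upstream Ldha start (chr7:46845554-46845803, plus strand) and the Bnip3 window (chr7:138909507-138909756, minus strand) held 5 each, counting both strands of a palindrome, and the window of the downstream Ldha start, not shown, held 1. The 2 genes with no match in any window were Gpi1 and Tpi1. The counts per gene cannot tell which start of Hk1 or Ldha was used.

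The HIF transcription factors did not pass the test in any drug comparison. Hif1a held 386, 291, 322 and 288 CPM in vehicle, 295, 324, 350.0 and 333 in trastuzumab, 330.0, 317, 367 and 266 in panobinostat and 272, 245, 363 and 228 in combination libraries. Its groups overlapped, and the log2 change under both drugs was -0.22 (95% interval -0.52 to 0.09, edgeR adjusted p = 0.569). Epas1, the form best known from endothelium and fat, held 92.9, 135, 109 and 92.7 CPM in vehicle, 97.0, 90.8, 80.8 and 80.3 in trastuzumab, 83.0, 102, 64.1 and 133 in panobinostat and 78.8, 114, 80.8 and 114 in combination libraries. The Epas1 values spread within each group, and its log2 change was -0.30 under trastuzumab (edgeR adjusted p = 1.00) and -0.15 under both drugs (edgeR adjusted p = 0.812).

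Of the oxygen-sensing hydroxylases, Egln3, itself a HIF target, was barely expressed and the most variable, with 1.40, 3.85, 4.51 and 4.15 CPM in vehicle, 4.80, 5.37, 2.50 and 2.26 in trastuzumab, 1.60, 4.21, 3.22 and 6.22 in panobinostat and 2.91, 7.99, 1.71 and 5.69 in combination libraries. Its log2 change under both drugs was 0.40 with a 95% interval of -0.57 to 1.38. Both a fall and a rise of Egln3 within that interval thus remain possible. Egln1, the main oxygen sensor of most cells, was steadier, at 69.2 ± 8.72 CPM in vehicle and 62.4 ± 4.56 CPM under both drugs (SD, n = 4 each), a log2 change of -0.15 (edgeR adjusted p = 0.572).

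Carriers of glucose and lactate changed little. Slc2a1, the glucose carrier GLUT1, held 75.1, 44.3, 59.0 and 69.3 CPM in vehicle, 61.7, 66.5, 66.8 and 77.7 in trastuzumab, 69.7, 53.0, 72.4 and 58.9 in panobinostat and 57.6, 64.7, 76.2 and 43.0 in combination libraries. The log2 changes of Slc2a1 were 0.14 under trastuzumab, 0.04 under panobinostat and -0.04 under both drugs, with edgeR adjusted p of 1.00, 0.990 and 0.961. Slc16a3, the lactate exporter MCT4, held 20.9, 19.1, 17.5 and 13.1 CPM in vehicle, 13.7, 15.9, 16.2 and 13.9 in trastuzumab, 15.3, 20.2, 29.3 and 11.3 in panobinostat and 15.2, 14.4, 19.0 and 19.5 in combination libraries. Panobinostat mouse 8 was the highest and panobinostat mouse 13 the lowest of all 16, so the groups overlapped. The log2 change of Slc16a3 under both drugs was -0.05 (edgeR adjusted p = 0.963).

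Among the 12 glycolytic enzymes, no gene other than Hk1 was called. Ldha held 257, 379.6, 301 and 353 CPM in vehicle, 363, 281, 272 and 253 in trastuzumab, 255, 335, 282 and 312 in panobinostat and 268, 284, 239.8 and 354 in combination libraries. The log2 change of Ldha was -0.17 under both drugs (95% interval -0.49 to 0.15, edgeR adjusted p = 0.702), less than the spread within groups. Under both drugs the log2 changes of the other 10 enzymes ran from -0.22 for Aldoa to 0.10 for Pgk1. Hk2, the hexokinase that insulin and HIF raise, stood at 26.6 ± 4.29 CPM in vehicle and 24.5 ± 4.30 CPM under both drugs (SD, n = 4 each), a log2 change of -0.12 (edgeR adjusted p = 0.795).

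The regulators set the pace of glycolysis through a fructose bisphosphate that activates phosphofructokinase (Pfkfb3, Pfkfb4) or shut pyruvate dehydrogenase (Pdk1). Pfkfb3 held 71.6, 110.0, 84.6 and 74.2 CPM in vehicle, 135, 68.5, 64.3 and 63.3 in trastuzumab, 88.3, 146, 62.4 and 159 in panobinostat and 93.1, 134, 86.1 and 123 in combination libraries. Its highest libraries were panobinostat mice 13 and 7 and trastuzumab mouse 12, and each group also held libraries near or below 93.1 CPM. The average log2 change of Pfkfb3 with panobinostat was 0.41 (SE 0.20, edgeR adjusted p = 0.402). Pfkfb4 held 32.9, 40.3, 29.8 and 34.9 CPM in vehicle, 36.3, 35.8, 36.4 and 39.8 in trastuzumab, 40.2, 36.8, 34.7 and 36.5 in panobinostat and 38.7, 35.5, 38.2 and 40.2 in combination libraries, a log2 change of 0.14 under both drugs (edgeR adjusted p = 0.578). Pdk1 stood at 24.4 ± 4.72 CPM in vehicle and 23.3 ± 3.57 CPM under both drugs (SD, n = 4 each).

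The collagen-modifying enzymes hydroxylate prolines (P4ha1, P4ha2) and lysines (Plod2) of collagen before it leaves the cell. Plod2 held 287, 184, 220.2 and 186 CPM in vehicle, 180.2, 221, 240.1 and 255 in trastuzumab, 182, 180.4, 214 and 147 in panobinostat and 180.2, 152, 219 and 102 in combination libraries. The lowest value was in combination mouse 22 and the highest in vehicle mouse 3, and the groups overlapped. The average log2 change of Plod2 with panobinostat was -0.37 (SE 0.14, edgeR adjusted p = 0.225). P4ha2 held 41.3, 42.9, 44.4 and 44.3 CPM in vehicle, 36.7, 39.8, 58.3 and 49.2 in trastuzumab, 36.4, 52.5, 55.6 and 31.9 in panobinostat and 36.5, 32.5, 36.7 and 32.6 in combination libraries. The combination libraries were below all vehicle and trastuzumab libraries, though combination mouse 16 and trastuzumab mouse 12 both stood at 36.7 CPM after rounding, and the log2 change of P4ha2 was -0.32 against vehicle (edgeR adjusted p = 0.416) and -0.41 against trastuzumab (edgeR adjusted p = 0.431), neither past the threshold. P4ha1 stood at 93.1 ± 9.09 CPM in vehicle and 85.2 ± 6.19 CPM under both drugs (SD, n = 4 each), a log2 change of -0.13.

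The other hypoxia-responsive genes did not pass the test. Car9, a strong HIF-1 target in tumour cells, was near the lower limit of detection, with 2.61, 2.73, 2.08 and 2.61 CPM in vehicle, 3.29, 1.89, 3.33 and 2.43 in trastuzumab, 1.60, 3.37, 2.14 and 2.29 in panobinostat and 2.91, 2.32, 2.85 and 4.05 in combination libraries (9 to 32 counts). No change of Car9 was detectable at this depth, with a log2 change of 0.28 under both drugs (95% interval -0.28 to 0.84). Ndrg1, a stress-response gene, held 38.9, 47.5, 47.9 and 40.0 CPM in vehicle, 40.4, 37.1, 48.7 and 41.0 in trastuzumab, 34.3, 50.5, 43.8 and 44.8 in panobinostat and 47.3, 57.2, 33.4 and 57.4 in combination libraries, and its log2 change under both drugs was 0.17 (edgeR adjusted p = 0.722). Mxi1, a repressor of MYC activity, held 94.3, 64.0, 87.4 and 87.3 CPM in vehicle, 79.9, 84.3, 98.9 and 88.6 in trastuzumab, 104, 72.5, 97.9 and 82.5 in panobinostat and 81.7, 78.3, 87.8 and 66.3 in combination libraries, and its log2 change under both drugs was -0.09 (edgeR adjusted p = 0.863). Both genes overlapped between all groups. The untested Ankrd37 held 1.20, 1.77, 1.39 and 0.922 CPM in vehicle, 1.23, 0.632, 1.25 and 1.04 in trastuzumab, 0.888, 0.673, 2.32 and 0.818 in panobinostat and 0.807, 0.872, 0.950 and 2.02 in combination libraries.

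The mitophagy receptor gene Bnip3 stood at 72.4 ± 21.8 CPM in vehicle and 72.8 ± 26.7 CPM under both drugs, and the mitochondrial gene Higd1a at 24.4 ± 6.84 and 19.2 ± 7.25 CPM (SD, n = 4 each). Ddit4, an inhibitor of mTORC1 signalling, stood at 44.9 ± 6.60 and 43.2 ± 9.22 CPM, and Ero1l, an oxidase of the endoplasmic reticulum, at 34.5 ± 4.83 and 35.2 ± 3.76 CPM. Their log2 changes under both drugs were 0.01, -0.34, -0.06 and 0.03, each less than the spread between libraries.

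Another 78 genes of the same pathways were tested: paralogs of the enzymes and carriers, pyruvate dehydrogenase and glycogen genes, parts of the HIF pathway and further hypoxia targets. Under both drugs 0 rose and 1 fell (1.28%), the hypoxia target Bhlhe40, against the 2.2% of all genes given above. Bhlhe40, a transcriptional repressor that HIF can raise, held 70.0, 73.2, 65.2 and 63.5 CPM in vehicle, 60.6, 59.5, 63.3 and 77.5 in trastuzumab, 52.4, 49.6, 50.2 and 43.4 in panobinostat and 47.5, 54.3, 49.8 and 52.3 in combination libraries. Every panobinostat-treated library was below every other, and such a separation, in either direction, held for 0.801% of all genes tested. The average log2 change of Bhlhe40 with panobinostat was -0.41 (SE 0.071, edgeR adjusted p = 0.00358), where 3.02% of all genes were called. No other gene of the 78 was called in any drug comparison of the fit without covariates. The Bhlhe40 call for both drugs against vehicle (log2 change -0.41, edgeR adjusted p = 0.0383) was lost when any of 13 libraries was left out, with total counts only, with no filter on low counts, with only the groups compared and with the luminal epithelial score as a covariate (edgeR adjusted p = 0.0844 to 0.325 under these 4 settings). Against vehicle, Bhlhe40 was also called under panobinostat alone by DESeq2 (adjusted p = 0.00647) and by edgeR with the adipocyte score as a covariate (adjusted p = 0.0185). Panobinostat alone called 0 of the 78, with 9 (11.5%) at an unadjusted p under 0.05, against 8.1% of all genes, and trastuzumab alone 0, with 4 (5.13%), against 3.52%.

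More of the genes followed the level of adipocyte markers in the tumour sample than were called in any treatment comparison. An adipocyte score, the mean log2 CPM of 11 adipocyte markers such as Adipoq and Plin1, ran from 6.53 to 8.38 in vehicle, 6.38 to 8.79 in trastuzumab, 6.64 to 9.09 in panobinostat and 6.85 to 8.49 in combination libraries, ranges that overlap. In a fit with a mean for each group and a slope on this score, chosen after the data were examined, 20 of 32 genes (62.5%) were called, against 32.3% of all genes tested. Of these, 13 were higher with the score (17.8% of all genes) and 7 lower (14.5%). The median slope was 0.068 for the 32 genes and 0.0068 for all genes, in log2 change per unit of score. Their median level of 70.0 CPM was above the 22.6 CPM of all genes tested, which bears on how readily a slope is called. Leaving out the 2 libraries farthest from the median score kept 17 of the 20 calls. The calls lost were those of Hk2, Pgam1 and Gapdh (edgeR adjusted p = 0.0659, 0.0527 and 0.0686), and all 20 slopes kept their sign. What part of these slopes comes from adipocyte RNA, from dilution by it or from tissue beside the fat was not tested.

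Higher with the adipocyte score were 7 of 12 glycolytic enzymes: Tpi1 (0.36 log2 per unit, SE 0.048, edgeR adjusted p = 2.77e-05), Pfkl (0.28), Ldha (0.20), Aldoa (0.17), Hk2 (0.13), Pgam1 (0.13) and Gpi1 (0.11). Lower were Pgk1 (-0.19), Gapdh (-0.18) and Pkm (-0.14). Hk1, the enzyme called with panobinostat, had a slope of 0.017 (edgeR adjusted p = 0.747). Of the regulators, Pfkfb3 rose by 0.44 (SE 0.056, edgeR adjusted p = 1.63e-05), while Pfkfb4 (0.010) and Pdk1 (0.17) did not pass. The glucose carrier Slc2a1 fell by 0.19 per unit (edgeR adjusted p = 0.0122).

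The 2 HIF factors went opposite ways with the score. Epas1 rose by 0.25 per unit (SE 0.054, edgeR adjusted p = 0.00208) and Hif1a fell by 0.18 (SE 0.039, edgeR adjusted p = 0.00227). In all 4 groups the library with the highest score had the most Epas1, narrowly so in the combination group. In the vehicle, panobinostat and combination groups, the library with the lowest score had the most Hif1a. Egln3 rose by 0.60, Adm by 0.48, Bnip3 by 0.47 and Higd1a by 0.36 per unit, with edgeR adjusted p of 0.00601, 0.00299, 1.86e-05 and 0.00142. Plod2 fell by 0.27 (edgeR adjusted p = 0.000955) and Mxi1 by 0.15 (edgeR adjusted p = 0.0145). Bnip3 held 52.2, 97.1, 56.2 and 84.2 CPM in vehicle, 98.9, 45.2, 58.3 and 44.0 in trastuzumab, 50.8, 83.3, 61.3 and 112 in panobinostat and 62.3, 72.7, 46.8 and 109 in combination libraries. In each group the library with the highest adipocyte score had the most Bnip3.

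**Figure D4:**
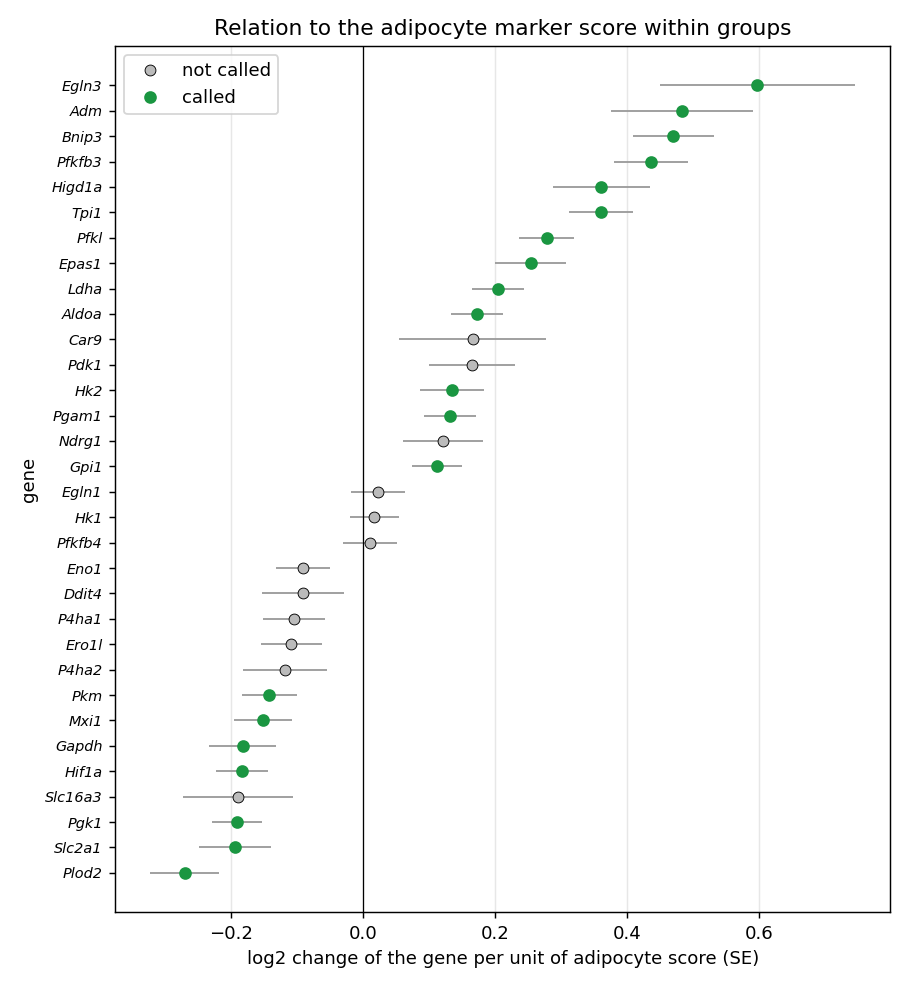
Slope of each of the 32 tested genes on the adipocyte marker score within groups, in log2 change per unit of score (points) with its SE (lines), called genes in green. Slopes run from -0.27 for Plod2 to 0.60 for Egln3, and Hk1 lies near 0.

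**Figure D5:**
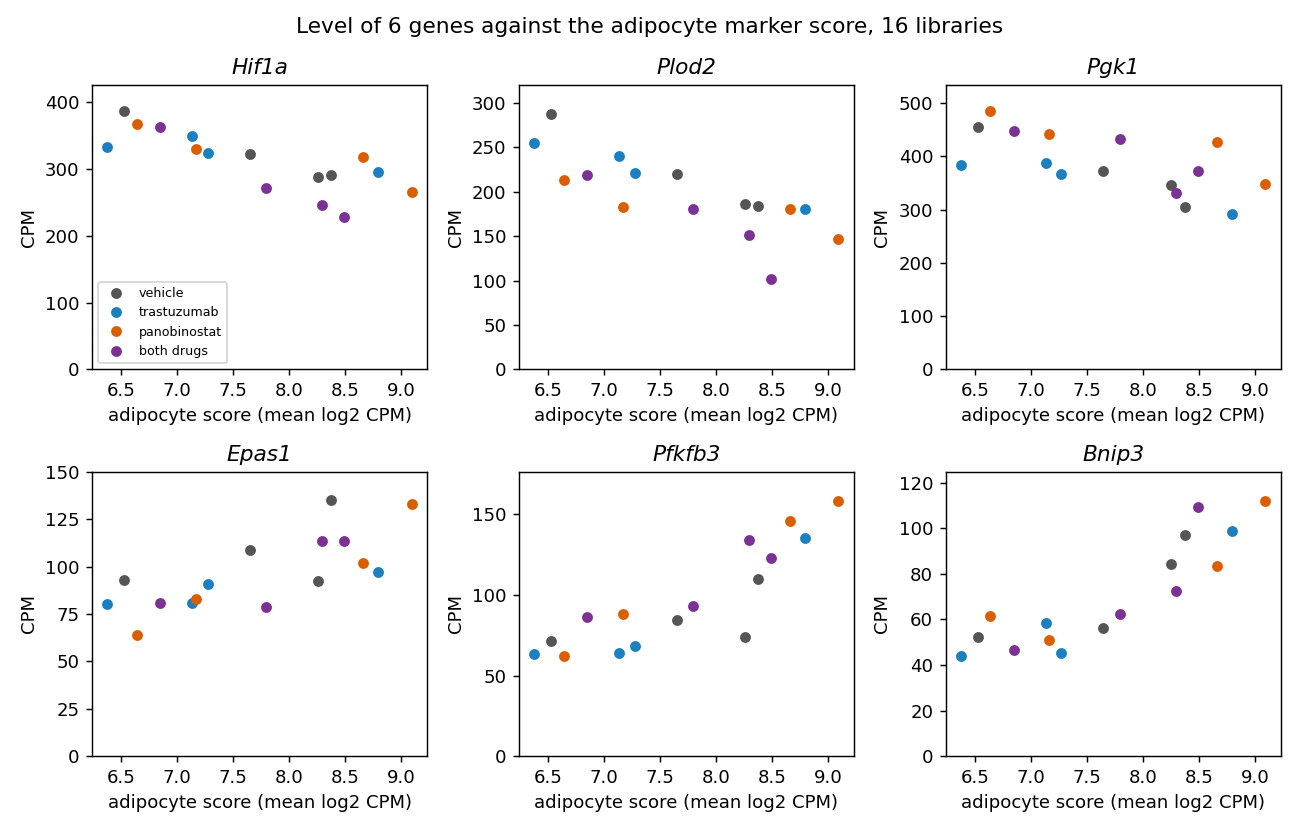
Level in CPM of Hif1a, Plod2, Pgk1, Epas1, Pfkfb3 and Bnip3 against the adipocyte score (mean log2 CPM of 11 markers) in the 16 libraries, coloured by group. The upper 3 genes are lower and the lower 3 genes higher in libraries with a high score.

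With the adipocyte score as a covariate, the spread of Adm between libraries of a group was smaller and more comparisons passed. The log2 change of Adm was then -1.61 under both drugs (SE 0.25, edgeR adjusted p = 0.000911), -1.20 under panobinostat (SE 0.24, edgeR adjusted p = 0.0185) and -1.05 for panobinostat on average (SE 0.18, edgeR adjusted p = 0.00172). Adm was the 1 member called in these 2 comparisons with vehicle, against 4.74% and 1.51% of all genes in that fit. On average over trastuzumab, panobinostat then called 3 of the 32 genes, Adm, Hk1 (0.25, edgeR adjusted p = 0.0234) and Pgk1 (0.24, edgeR adjusted p = 0.0303), against 6.12% of all genes. Adm in vehicle followed the score, lowest in mouse 3 with the lowest score and highest in mouse 6 with the highest. The fit with the adipocyte score was not repeated with libraries left out. Without a covariate, the Adm call for both drugs was lost when vehicle mouse 6 was left out. With the luminal epithelial score as the covariate instead, that call was also lost (edgeR adjusted p = 0.312).

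Of the 78 other pathway genes, 34 (43.6%) were called with the adipocyte score, 26 higher and 8 lower, against 32.3% of all genes called, 17.8% higher and 14.5% lower. The steepest were Slc2a4, the insulin-regulated glucose carrier GLUT4 of fat and muscle (1.42 per unit, edgeR adjusted p = 2.72e-10), and Pdk4, a kinase that shuts pyruvate dehydrogenase (0.97, edgeR adjusted p = 5.39e-08). Beside that background, 4 of 5 pyruvate dehydrogenase genes and 5 of 7 glycogen genes rose, among them Ppp1r3c (0.74), Gys1 (0.48) and Pygl (0.43). Of 11 HIF pathway genes 0 rose and 3 fell, Crebbp (-0.27), Ep300 (-0.16) and Siah2 (-0.16). A slope on the luminal epithelial score called 0 of the 32 genes and 0.147% of all genes, and DESeq2 and limma voom called 0 of the 32 as well.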

How the data were processed

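Per the submitters' processing notes, the authors used CASAVA 1.8.2, TopHat2, HTSeq and mm10 and deposited 1 table of raw counts per mouse gene symbol; settings, the annotation release and any removal of human reads are not stated in the labels. For 1327 symbols, none of the 33 genes, all 8 panobinostat-treated libraries had a dot, and these were left out, which leaves 23354. Counts of all 16 libraries entered 1 fit by edgeR 4.0.16 (R 4.3.3): TMM scaling, filterByExpr, 1 mean per group, quasi-likelihood F test, Benjamini-Hochberg adjustment over 15610 genes. The biological coefficient of variation was 0.183. SE is the absolute log2 change over the square root of F, an approximation. Levels are CPM on TMM-scaled totals; scores are mean log2 CPM with a prior count of 2. Alternatives were DESeq2 1.42.0, limma 3.58.1 (voom), other scalings and filters, marker scores as covariates, and each library left out. The slopes were added after the data were examined.

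The 33 genes and all lists were chosen with earlier results of these data known. Named are members called in any comparison, the 3 of smallest p in each, and Slc2a1, Ldha, Hif1a, Epas1, Car9, Ankrd37, Egln3 and Ndrg1; of other pathway genes, those called; 1 item is not reported here. Other members appear by role, as means or slopes. Replicate libraries differed beyond sampling noise (chi-square per degree of freedom 4.06 to 34.2 within groups). Positions and exonic lengths are from GENCODE (GRCm38), start windows from RefSeq. The test was checked on simulated counts.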

Additional observations from a re-analysis of the deposited data

Results flagged for a closer look

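In 7 of 136 groups of 4 libraries, 1 library stood apart from the other 3 of its group by Dixon's criterion, and chance alone gives about 1 in 20. Hk1 was 48.5 CPM in trastuzumab mouse 20, against 52.7 to 53.5 in the others, and that library is among those without which the Hk1 call for panobinostat on average was lost. Trastuzumab mouse 12, the library of that group with the highest adipocyte score, had 135 CPM of Pfkfb3, against 63.3 to 68.5, and 342 CPM of Eno1, against 404 to 408. Pfkfb4 was 39.8 CPM in trastuzumab mouse 24, against 35.8 to 36.4. Gapdh was 93.1 CPM in vehicle mouse 6, against 135 to 143. Ankrd37, at 4 to 16 counts, was 2.32 CPM in panobinostat mouse 8, against 0.673 to 0.888, and 2.02 CPM in combination mouse 22, against 0.807 to 0.950.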

How the results depend on the processing

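No paired analysis was possible because every mouse number occurs in 1 group only. For panobinostat against vehicle the count of called hypoxia and glycolysis genes went from 0 to 1 with the adipocyte score as a covariate. For both drugs against vehicle it went from 1 to 0 by limma voom, with only the groups compared, and with the luminal epithelial score as a covariate, and was 0 to 1 when each library was left out. For panobinostat on average it went from 1 to 0 with no filter on low counts and with the skeletal muscle score as a covariate, to 2 by DESeq2 and to 3 with the adipocyte score, and was 0 to 1 when each library was left out; without vehicle mouse 3 the gene called was Adm and not Hk1. No call reversed direction, and the cause of these shifts was not tested. The genes called on the adipocyte score numbered 17 to 22 under 7 alternatives and 17 to 23 with each library left out, against 20.

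Counts over all genes depended more on the setting. They were 3 (limma voom) to 235 (adipocyte score) against 30 for panobinostat, 126 (luminal epithelial score) to 740 (adipocyte score) against 343 for both drugs, 5 (only the groups compared) to 228 (DESeq2) against 98 for both drugs against trastuzumab, and up to 955 (adipocyte score) against 471 for panobinostat on average. For trastuzumab they were 0 to 12 (DESeq2) against 0, and on average 5 to 64 (DESeq2) against 23. With each library left out, panobinostat gave 3 to 72, both drugs 202 to 395 and both drugs against trastuzumab 3 to 179. Scaling by total counts or by DESeq2 size factors moved the median of all genes by at most 0.053 log2. Car9, Egln3 and Ankrd37 had too few counts for small changes to be seen.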
